A study of Mus musculus with 10 samples.

Results

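The 5 angiopoietin-like genes Angptl7, Angptl2, Angptl1, Angptl4 and Angptl6 were followed in RNA from mouse Achilles tendon. They were taken from the count table by symbol, and the set was built around Angptl7 because its transcript is among the most abundant in these libraries. The 5 genes stand among 32285 in the table. Of the 5, 4 had enough counts to be tested, and Angptl6 did not. Since abundance chose the set, the levels and ranks of Angptl7 below describe it and carry no test. Earlier results of these data were also known when the members were chosen, so the genotype comparisons below were not blind to them.

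Angiopoietin-like proteins are secreted factors that resemble the angiopoietins in having a coiled-coil stretch and, in all members here, a fibrinogen-like domain, but most do not bind the angiopoietin receptor Tie2. Angptl4 inhibits lipoprotein lipase and so limits the uptake of fatty acids from circulating lipoproteins. Angptl2 acts through integrins and immune inhibitory receptors, and Angptl7 is best known from the cornea and the outflow tissue of the eye, where it is linked to extracellular matrix and eye pressure.

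The mice carried combinations of 2 altered alleles of Mkx, the gene of the homeobox transcription factor Mohawk, which tendon cells use. Group Mkx-CreER/flox (n = 3 libraries) carries both a CreER allele and a floxed allele, so that tamoxifen can delete Mkx. Group Mkx-CreER/+ (n = 3) carries the CreER allele alone, and group Mkx-flox/+ (n = 4) the floxed allele alone. All 3 groups received tamoxifen at 20 mg/kg when 6 weeks old, and tendon was taken 4 weeks later. The allele name places CreER, a recombinase that tamoxifen activates, at Mkx. Not given in the labels are the cells in which it acted, the exons deleted, and whether the CreER allele by itself lowers Mkx. The series design writes the second control without its wild-type allele. The labels do not say that each library came from a separate animal, so p-values measure the spread between these libraries, which may in part be technical.

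Total counts per library lay between 8680934 and 22656417, and 3 counts correspond to 0.126 to 0.360 CPM (counts scaled to library size after TMM scaling), a limit that covers counting error only. Libraries are named by genotype and the number in their column. Mkx itself had 26.1, 32.4 and 30.5 CPM in Mkx-CreER/flox libraries 1, 4 and 5. It had 91.4, 93.8 and 93.5 CPM in Mkx-CreER/+ libraries 1, 2 and 4, and 187.4, 177.4, 120.9 and 153.3 CPM in Mkx-flox/+ libraries 1 to 4. The groups did not overlap, and Mkx fell against both controls (log2 fold change -2.04, SE 0.176, adjusted p = 0.000149). All 12 markers of tendon cells, Mkx among them, had counts. Their summed level was 35091 to 48130 CPM in Mkx-CreER/flox, 58724 to 77159 in Mkx-CreER/+ and 97582 to 153391 in Mkx-flox/+.

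Angptl7 (ENSMUSG00000028989) lies on chromosome 4 at 148495183 to 148500460 of GRCm38, on the minus strand, with 5 exons in 1 annotated transcript of 2157 bases. The whole gene sits inside 1 intron of Mtor, which encodes the growth-control kinase mTOR and runs on the plus strand. That intron spans 148491767 to 148511770. Angptl2 (ENSMUSG00000004105, chromosome 2, 33216069 to 33247717, plus strand) is placed the same way in an intron of Ralgps1 (33174549 to 33259363). Angptl1 (ENSMUSG00000033544, chromosome 1, 156838562 to 156861078, plus strand) lies in an intron of Ralgps2 (156833033 to 156869440). No exon base of these 3 genes is shared with the host gene. Angptl4 (ENSMUSG00000002289, chromosome 17, 33773750 to 33781830) and Angptl6 (ENSMUSG00000038742, chromosome 9, 20873808 to 20879727) are on the minus strand and nested in no other gene.

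Since 2 nested members carried most of the counts and had lower values in the Mkx-CreER/flox libraries, the 250 bases before their RefSeq start sites are shown (GRCm38.p6, 5′ to 3′ on the strand of the gene). Angptl7 is at chr4:148500463-148500712 on the minus strand and Angptl2 at chr2:33215711-33215960 on the plus strand. Capitals mark the E-box, searched as CANNTG, the short palindrome that basic helix-loop-helix factors such as the tendon factor Scleraxis bind.
Angptl7: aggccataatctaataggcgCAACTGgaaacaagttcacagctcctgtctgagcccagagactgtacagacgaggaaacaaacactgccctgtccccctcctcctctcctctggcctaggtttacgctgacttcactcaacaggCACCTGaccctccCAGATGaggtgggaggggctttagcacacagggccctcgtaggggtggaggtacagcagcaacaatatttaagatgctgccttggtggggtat
Angptl2: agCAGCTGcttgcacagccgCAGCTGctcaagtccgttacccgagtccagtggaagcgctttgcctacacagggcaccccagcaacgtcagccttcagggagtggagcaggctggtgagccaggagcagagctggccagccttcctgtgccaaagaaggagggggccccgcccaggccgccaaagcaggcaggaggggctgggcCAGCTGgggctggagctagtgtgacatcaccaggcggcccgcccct
Each window held 3 matches, while the windows of Angptl1 and Angptl6, which are not shown, held 1 each. Of 32851 windows of the same length before RefSeq start sites, 66.2% held the motif at least once and 12.2% held it 3 times or more. On either strand, neither of the 2 windows shown held the TATA box in the only form searched (TATAAA), which 12.4% of all windows held. The same was true of the AP-1 motif (TGANTCA, 6.75% of all windows) and of the glucocorticoid receptor half-site (AGAACA, 16.1%). A match is a stretch of letters and not a measured binding site.

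The genes share little exact sequence that could confuse read assignment. Over the 15 pairs of these 5 genes and Angptl8, the longest identical stretch between annotated transcripts was 10 to 25 bases, and between Angptl7 and Angptl2 it was 19. Both Angptl6 and Angptl1 overlap exons on the opposite strand. Angptl6 shares 16.75% of its exon length with A230050P20Rik, and Angptl1 shares 16.37% with Gm37802, which is not in the table. No source used here says whether the counting used strand, so reads from those stretches cannot be told apart. For the same reason, reads from host gene introns, which a total RNA method can also capture, cannot be told apart from those of the nested genes. Their share was not measured.

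Angptl7 dominated the set. Per transcript length it reached 22084 TPM (a level scaled by transcript length and library size) on average over the 10 libraries, and it ranked 1st to 10th of 32158 genes. It ranked 2, 1 and 4 in Mkx-CreER/+ libraries 1, 2 and 4. In Mkx-flox/+ libraries 1 to 4 it ranked 1, 1, 1 and 3, and in Mkx-CreER/flox libraries 1, 4 and 5 it ranked 10, 9 and 5. It made up 94.5 to 97.1% of the members' counts in every library.

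The other members followed in the order Angptl2 (266.5 TPM on average), Angptl1 (95.3 TPM), Angptl4 (31.2 TPM) and Angptl6 (0.580 TPM), and that order held in 10 of 10 libraries. The Angptl7 level per length was 57.8 to 128 times that of Angptl2. The step from Angptl2 to Angptl1 was the narrowest, a ratio of 1.03 in 1 library and 5.05 at most. Across libraries Angptl2 spanned 92.9 to 397.7 TPM and Angptl1 spanned 74.6 to 111 TPM, so these neighbours overlapped. Angptl1 and Angptl4 did not overlap, since Angptl4 reached at most 49.9 TPM, and neither did Angptl4 and Angptl6, with a lowest Angptl4 level of 9.58 TPM and a highest Angptl6 level of 1.66 TPM.

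**Figure D1:**
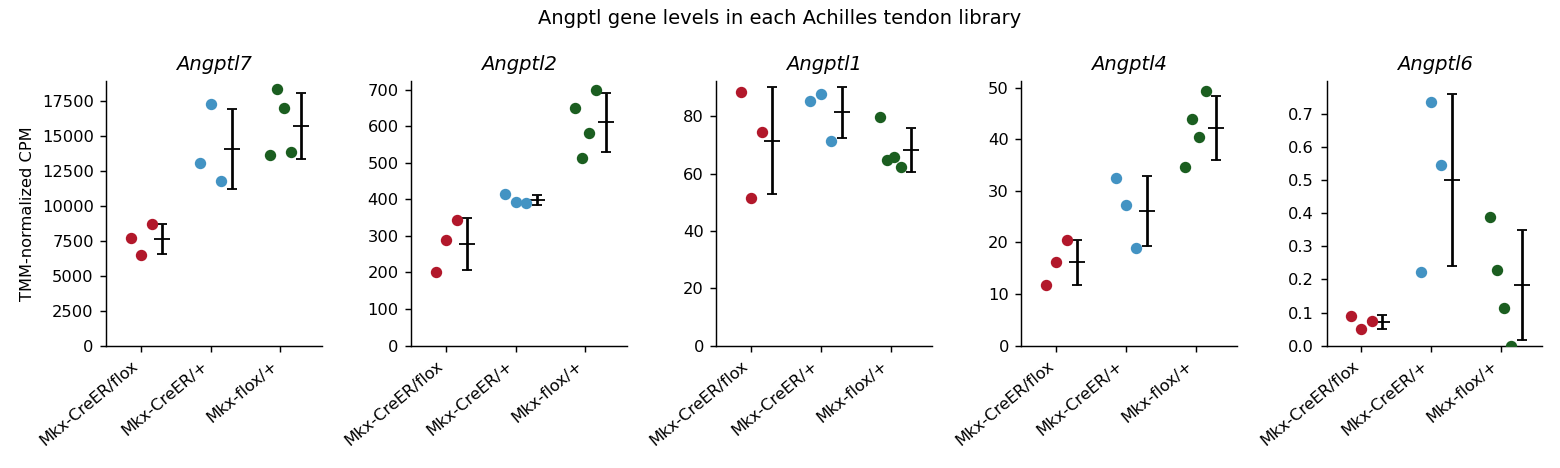
Level of each Angptl gene (TMM-normalized CPM, axes from 0 and different for each gene) in every library of the 3 genotypes, with the mean and SD of each genotype beside the points. The 3 Mkx-CreER/flox libraries of Angptl7 sit between 6503 and 8697 CPM, below the lowest control at 11794 CPM, while those of Angptl1 reach both above and below the controls.

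Angptl7 transcripts in the Mkx-CreER/flox tendons stood below those of both control groups. The level was 7662, 6503 and 8697 CPM in Mkx-CreER/flox libraries 1, 4 and 5. Mkx-CreER/+ libraries 1, 2 and 4 had 13018, 17242 and 11794 CPM, and Mkx-flox/+ libraries 1 to 4 had 13626, 18310.3, 16974 and 13842 CPM. All 3 Mkx-CreER/flox libraries were below all 7 controls, and the ranges of the 2 control genotypes overlapped. Group means were 7621 ± 1097 CPM (SD, n = 3) against 14972 ± 2494 CPM (SD, n = 7), and Angptl7 fell by 0.96 on the log2 scale (SE 0.248, 95% interval -1.49 to -0.43, adjusted p = 0.0404). The modelled level was 51.4% of that of the controls. An exact two-sided permutation test of mean log2 CPM gave p = 0.00833, the smallest that 120 divisions of the libraries allow. That p rests on the same lack of overlap, which 3.12% of all genes tested showed with Mkx-CreER/flox below.

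Angptl2, the next most abundant member, also fell. Its level was 202.5, 287.8 and 344.8 CPM in Mkx-CreER/flox libraries 1, 4 and 5, against 414.8, 392.7 and 388.9 CPM in Mkx-CreER/+ libraries 1, 2 and 4. Mkx-flox/+ libraries 1 to 4 had 649.3, 511.8, 581.0 and 698.4 CPM. The 3 genotypes did not overlap, with Mkx-CreER/+ in the middle and nearer to Mkx-CreER/flox. Against both controls the log2 fold change was -0.83 (SE 0.194, 95% interval -1.24 to -0.41, adjusted p = 0.0308).

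Angptl4, the lipoprotein lipase inhibitor, showed the same order of genotypes at a lower level. Its level was 11.8, 16.2 and 20.5 CPM in Mkx-CreER/flox libraries 1, 4 and 5, and 32.4, 27.2 and 18.9 CPM in Mkx-CreER/+ libraries 1, 2 and 4. Mkx-flox/+ libraries 1 to 4 had 34.6, 44.0, 40.5 and 49.4 CPM. Library 5 of Mkx-CreER/flox lay above library 4 of Mkx-CreER/+, so the groups overlapped there and nowhere else. Angptl4 fell against both controls (log2 fold change -1.04, SE 0.222, 95% interval -1.51 to -0.56, adjusted p = 0.0249).

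Angptl1 did not pass the test. It had 88.5, 51.5 and 74.5 CPM in Mkx-CreER/flox libraries 1, 4 and 5, 85.3, 87.7 and 71.3 CPM in Mkx-CreER/+ libraries 1, 2 and 4, and 79.7, 64.9, 65.8 and 62.5 CPM in Mkx-flox/+ libraries 1 to 4. Library 4 of Mkx-CreER/flox was the lowest of all 10 and library 1 the highest, so the group spans the controls on both sides. The log2 fold change against both controls was -0.06 (SE 0.173, adjusted p = 0.888), and its 95% interval of -0.43 to 0.31 leaves out a fall of the size estimated for Angptl7. Angptl6 was near the limit of counting, with 3, 14 and 13 counts in Mkx-CreER/+ libraries 1, 2 and 4 and 1 count in each Mkx-CreER/flox library. It had 4, 2, 2 and 0 counts in Mkx-flox/+ libraries 1 to 4, and the 0 in library 4 allows up to 0.360 CPM.

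Thus 3 of the 4 members tested, a set chosen with earlier results of these data known, were called lower against both controls. Over all 16017 genes tested, 4.65% were called in that comparison with 3.03% higher and 1.62% lower. DESeq2 called 3 of the 4 members and 1459 genes in all, and 3310 genes (20.7% of those tested) had an unadjusted p under 0.05, a share against which the unadjusted counts for lists below are to be read. The median log2 fold change of the 4 members was -0.89, beside 0.02 over all genes tested. Groups did not overlap, with Mkx-CreER/flox below, for 3.12% of all genes, and Angptl7 and Angptl2 are among those. In bulk tissue, fewer cells of a type and less RNA per cell cannot be told apart.

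Against Mkx-flox/+ alone the same 3 members were called. Angptl4 had a log2 fold change of -1.38 (SE 0.242, adjusted p = 0.00720), Angptl2 of -1.13 (SE 0.211, adjusted p = 0.00980) and Angptl7 of -1.04 (SE 0.268, adjusted p = 0.0312), and in none of the 3 did the groups overlap. The value for Angptl1 was 0.07 (SE 0.191, adjusted p = 0.882). In this comparison 7.27% of all genes were called, 4.37% higher and 2.9% lower, and 9.5% had groups that did not overlap with Mkx-CreER/flox below. The exact permutation test for Angptl7 gave p = 0.0286, the smallest of 35 divisions.

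Against Mkx-CreER/+ alone, 0 of the 4 members were called by edgeR, where 0.00624% of all genes were, a single gene that is Mkx itself. At an unadjusted p under 0.05 it was 3 of the 4 members and 1720 genes in all, and DESeq2 called 1 member, Angptl7, and 126 genes. The log2 fold change of Angptl7 was -0.88 (SE 0.281, 95% interval -1.48 to -0.28, adjusted p = 0.329 by edgeR and 0.0119 by DESeq2), with no overlap between the groups. Groups did not overlap, with Mkx-CreER/flox below, for 6.14% of all genes. The exact permutation p for Angptl7 was 0.1, the smallest that 3 libraries against 3 allow. Angptl4 had -0.69 (SE 0.25, adjusted p = 0.357), Angptl2 -0.52 (SE 0.22, adjusted p = 0.419) and Angptl1 -0.19 (SE 0.203, adjusted p = 0.797).

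The 2 control genotypes were also set against each other, with 0 of 4 members and 0% of all genes called by edgeR, 2 members and 798 genes at an unadjusted p under 0.05, and 0 members and 37 genes by DESeq2. Mkx-CreER/+ minus Mkx-flox/+ was -0.16 for Angptl7 (SE 0.261, 95% interval -0.72 to 0.40), -0.61 for Angptl2 (SE 0.208, interval -1.06 to -0.17) and -0.69 for Angptl4 (SE 0.235, interval -1.19 to -0.19). For Angptl2 and Angptl4 the control libraries did not overlap, as for 3.89% of all genes with Mkx-CreER/+ below. For Mkx the same difference was -0.78 (SE 0.176, adjusted p = 0.489). The 3 comparisons of Mkx-CreER/flox share its libraries, so their values are given side by side and are not independent of one another.

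**Figure D2:**
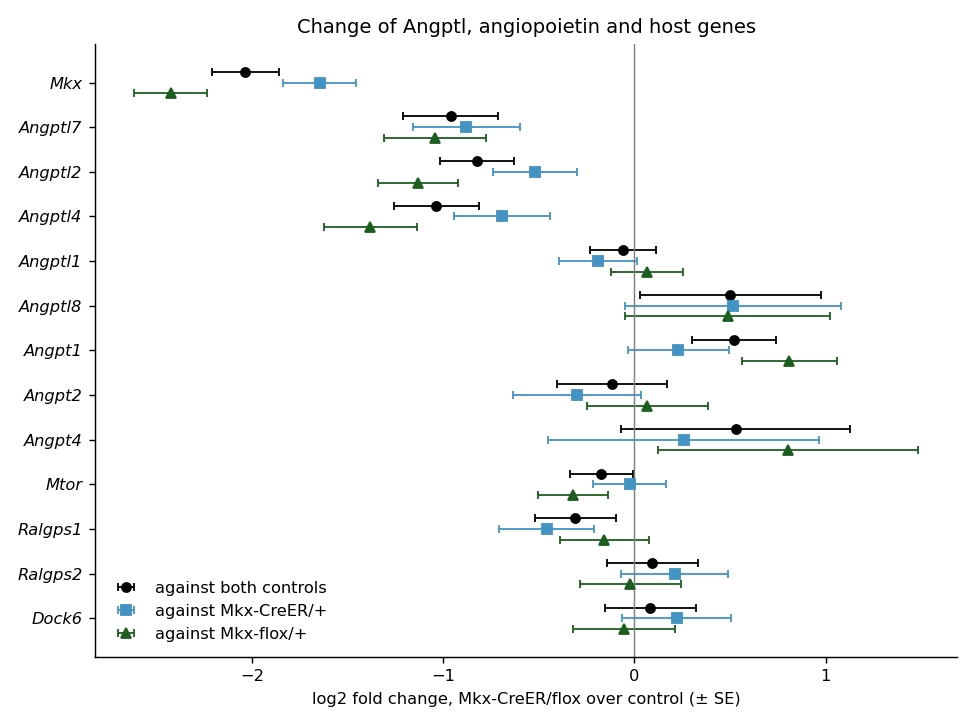
Log2 fold change (± SE) of Mkx-CreER/flox over both controls, Mkx-CreER/+ or Mkx-flox/+ for Mkx, the tested Angptl members, Angptl8, the angiopoietin genes and the host genes. Angptl7, Angptl2 and Angptl4 lie left of 0 in all 3 comparisons, at -0.96, -0.83 and -1.04 against both controls, while Angptl1 lies at -0.06.

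Ratios of counts between members within a library need no scaling between libraries. These 6 pairs were computed after the levels had been seen. The Angptl7 to Angptl1 count ratio was 86.6 to 126.3 in Mkx-CreER/flox, 152.6 to 196.6 in Mkx-CreER/+ and 170.9 to 282.3 in Mkx-flox/+, so the Mkx-CreER/flox libraries were below all 7 controls. The mean log2 ratio differed by -0.90 (exact two-sided permutation p = 0.00833, 0.05 adjusted over the 6 pairs). The adjusted value is not under 0.05, so this pair did not pass. Angptl7 to Angptl2 gave 22.6 to 37.8 in Mkx-CreER/flox, 30.3 to 43.9 in Mkx-CreER/+ and 19.8 to 35.8 in Mkx-flox/+, with overlap on every side and a mean difference of -0.07 (exact permutation p = 0.8). Angptl2 to Angptl1 separated the controls from each other, at 4.48 to 5.46 in Mkx-CreER/+ and 7.89 to 11.2 in Mkx-flox/+, with 2.29 to 5.59 in Mkx-CreER/flox (difference -0.83, exact permutation p = 0.0833, adjusted 0.167). For the 3 ratios to Angptl4 the differences were 0.14 with Angptl7, 0.21 with Angptl2 and 1.03 with Angptl1 above the line, and their exact permutation p-values were 0.633, 0.258 and 0.0583.

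**Figure D3:**
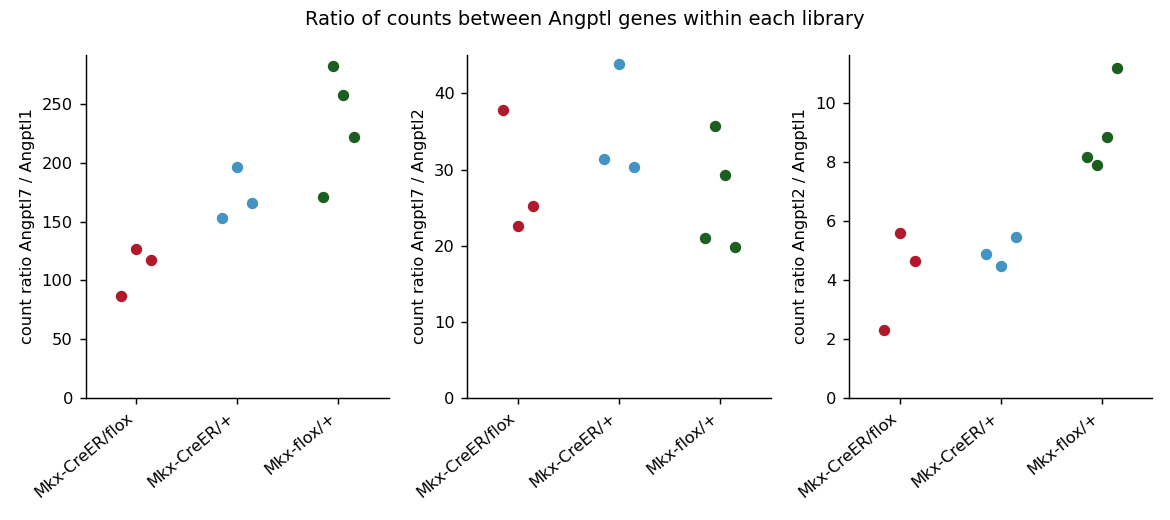
Ratio of counts (axes from 0) of Angptl7 to Angptl1, Angptl7 to Angptl2 and Angptl2 to Angptl1 in each library, by genotype. The Angptl7 to Angptl1 ratio is at most 126.3 in Mkx-CreER/flox and at least 152.6 in the controls, while the Angptl7 to Angptl2 ratio overlaps between all genotypes.

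Each fall kept its direction with any library left out, but the calls against both controls were close to the threshold. Without library 1 of Mkx-CreER/flox the log2 fold change was smallest in size for Angptl2 (-0.66) and Angptl4 (-0.88), and it was -0.99 for Angptl7. Mitochondrial genes held 8.85% of the counts of that library, against 1.92 to 5.32% in the others. With mitochondrial, muscle and erythroid genes taken out of the fit, edgeR still called 3 members against both controls. They were Angptl7 (-0.98, adjusted p = 0.0307), Angptl2 (-0.84, adjusted p = 0.0292) and Angptl4 (-1.05, adjusted p = 0.0254). What the mitochondrial share contributes was not tested beyond that fit. Leaving out each library in turn, the log2 fold change of Angptl7 ranged from -1.08 to -0.86 and its call was kept in 3 of 10 fits. The adjusted p was 0.0782 and 0.0972 without libraries 1 and 2 of Mkx-CreER/+, 0.0862 and 0.15 without libraries 1 and 4 of Mkx-CreER/flox, and 0.0687, 0.0711 and 0.0723 without libraries 1, 2 and 3 of Mkx-flox/+. Angptl2 ranged from -1.02 to -0.66, kept in 4 of 10. Its adjusted p was 0.0698 and 0.0702 without libraries 1 and 2 of Mkx-CreER/+, 0.0891 and 0.0905 without libraries 1 and 4 of Mkx-CreER/flox, and 0.0569 and 0.0521 without libraries 1 and 3 of Mkx-flox/+. Angptl4 ranged from -1.26 to -0.88, kept in 6 of 10, with 0.0626 and 0.0624 without libraries 1 and 2 of Mkx-CreER/+ and 0.0672 and 0.0743 without libraries 1 and 4 of Mkx-CreER/flox. Those fits also call fewer genes in all, from 64 without library 4 of Mkx-CreER/flox. Against Mkx-flox/+ alone, Angptl2 and Angptl4 kept their calls in all 10 fits and Angptl7 in 5, with adjusted p-values of 0.0541 and 0.115 without libraries 1 and 4 of Mkx-CreER/flox and of 0.0631, 0.0797 and 0.0776 without libraries 1, 2 and 3 of Mkx-flox/+.

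**Figure D4:**
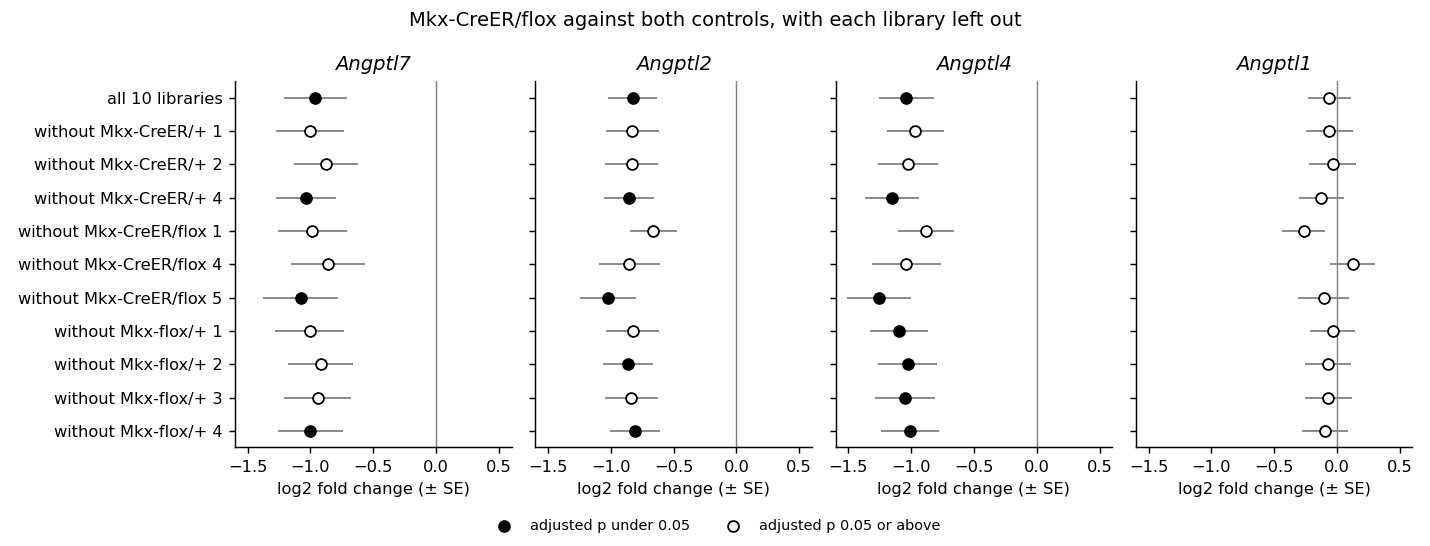
Log2 fold change (± SE) of Angptl7, Angptl2, Angptl4 and Angptl1 against both controls with all 10 libraries and with each left out, filled where the adjusted p was under 0.05. Angptl7 stays between -1.08 and -0.86 and is filled in 3 of 10 such fits, and Angptl1 crosses 0 without library 4 of Mkx-CreER/flox.

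Markers of muscle, tendon and macrophages moved with the genotype as well. Skeletal muscle markers held 7.80 to 12.2% of counts in Mkx-CreER/flox, 3.34 to 8.56% in Mkx-CreER/+ and 1.75 to 5.42% in Mkx-flox/+, and 6 of 24 rose (DESeq2 called 8), while 18 did not pass and 3 had negative values. Against Mkx-CreER/+ alone 0 of 24 were called by edgeR or DESeq2, 5 had an unadjusted p under 0.05 and 9 had negative values. With the mean log2 CPM of that list as a covariate, the log2 fold changes against both controls were -1.06 for Angptl7 (adjusted p = 0.114), -0.83 for Angptl2 (0.114) and -1.10 for Angptl4 (0.0809), so the sizes stayed and the calls did not. Against Mkx-flox/+ the covariate left Angptl4 called (adjusted p at most 0.0426 over all settings other than left-out libraries), with -1.19 for Angptl7 (0.118) and -1.13 for Angptl2 (0.0721). Of 12 tendon markers 5 fell (8 called by DESeq2) and all 12 had negative values, with a median of -0.81. Of 10 macrophage markers 9 fell (10 called by DESeq2), with a median of -1.34 and a summed level of 719.5 to 806.9 CPM in Mkx-CreER/flox, 1039 to 2580.3 in Mkx-CreER/+ and 1529 to 2552 in Mkx-flox/+. Against Mkx-CreER/+ alone edgeR called 0 of the 10 macrophage markers and DESeq2 called 9. All 10 had an unadjusted p under 0.05 there, with a median of -1.27. Of the 12 tendon markers edgeR called 1 and DESeq2 called 3 in that comparison, with a median of -0.56. None of the markers of these 3 lists was at 0 in every library. Muscle share and genotype largely went together in these libraries, so the covariate cannot fully separate them. The part of these lists in the results for the Angptl genes was not tested beyond that covariate and the fit without muscle genes.

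Fat tissue, a known source of Angptl4 and Angptl2, was followed through 10 adipocyte markers, of which 0 were called by edgeR, 3 had an unadjusted p under 0.05 and DESeq2 called 1. Their summed level was 1810.1 to 3486 CPM in Mkx-CreER/flox, 2766 to 5543 in Mkx-CreER/+ and 2390.1 to 3979 in Mkx-flox/+. These ranges overlap, all 10 had negative values, and none was at 0 in every library. Of 9 Schwann cell and nerve markers 1 rose and DESeq2 called 4, and all 9 had positive values with a median log2 fold change of 2.52. Their summed level was 491.0 to 2342 CPM in Mkx-CreER/flox, 441.1 to 1014 in Mkx-CreER/+ and 480.2 to 866.3 in Mkx-flox/+, so the groups overlapped. Of 11 paratenon and sheath markers 1 fell and DESeq2 called 3, and 10 had negative values with a median of -0.57. They summed to 8578 to 11579 CPM in Mkx-CreER/flox, 10834 to 18597 in Mkx-CreER/+ and 15589.9 to 22821 in Mkx-flox/+. Endothelial markers (2 of 10 rose, 3 by DESeq2, median 0.40) summed to 641.5 to 847.4 CPM in Mkx-CreER/flox and 456.5 to 670.7 over the controls, and mural markers (2 of 9 rose, 2 by DESeq2, median 0.78) to 1268 to 1750.2 CPM against 739.3 to 1044. Of the remaining lists, 1 of 7 chondrocyte and 1 of 4 epidermis markers fell, each also by DESeq2, and 0 of 5 erythroid markers were called (2 at an unadjusted p under 0.05, and 0 by DESeq2). The part of these lists in the results for the Angptl genes was not tested.

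Other ligands stood far below Angptl7. Angptl8, which lacks the fibrinogen-like domain, had 2.67 ± 1.89 CPM (SD, n = 3) in Mkx-CreER/flox. The controls had 1.86 ± 0.794 CPM (Mkx-CreER/+, n = 3) and 1.89 ± 0.503 CPM (Mkx-flox/+, n = 4). Its log2 fold change against both controls was 0.50 (SE 0.473, adjusted p = 0.606). Per length it was above Angptl6, at 9.40 TPM on average over the 10 libraries.

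Among the angiopoietins, Angpt1, the activating ligand of Tie2, had 25.3 ± 8.15 CPM in Mkx-CreER/flox, 21.6 ± 4.11 in Mkx-CreER/+ and 14.4 ± 2.42 in Mkx-flox/+. Its log2 fold change was 0.52 against both controls (SE 0.22, adjusted p = 0.196) and 0.81 against Mkx-flox/+ (SE 0.248, adjusted p = 0.0622). Part of its exons, 14.16% of their length, overlaps the antisense gene Gm17473. Angpt2, the context-dependent antagonist of Angpt1, gave -0.12 (SE 0.287, adjusted p = 0.869) and Angpt4 0.53 (SE 0.598, adjusted p = 0.676). Of these 4 other ligands, 0 were called against both controls by edgeR, 0 by DESeq2, and 1 had an unadjusted p under 0.05. Against Mkx-flox/+ alone 0 were called by edgeR, 1 had an unadjusted p under 0.05 and DESeq2 called 1.

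Of 8 receptors of angiopoietins and Angptl proteins, edgeR called 1 against both controls and DESeq2 called 2, with 3 at an unadjusted p under 0.05. Pirb, an inhibitory receptor of myeloid cells that binds Angptl2, fell from 25.6 ± 6.93 CPM (SD, n = 7) to 12.3 ± 1.85 CPM (n = 3), a log2 fold change of -1.05 (SE 0.257, adjusted p = 0.0343). The groups did not overlap. Macrophage markers fell beside it, as given above. Its call was kept in 3 of 10 fits with a library left out. The adjusted p was 0.0733 and 0.0814 without libraries 1 and 2 of Mkx-CreER/+, 0.105, 0.0763 and 0.0549 without libraries 1, 4 and 5 of Mkx-CreER/flox, 0.0618 and 0.0572 without libraries 1 and 3 of Mkx-flox/+, and 0.0866 with the muscle covariate. The other 7, among them the Tie2 gene Tek and the integrin genes, did not pass by edgeR, and the median of the 8 was 0.15. Against Mkx-flox/+ alone edgeR called 1 receptor higher, Tek (0.64, SE 0.183, adjusted p = 0.0470), and 1 lower, Pirb (-1.05, SE 0.277, adjusted p = 0.0349), and DESeq2 called 3.

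Lipases and the proteases that cleave Angptl proteins gave 0 calls in 9 tested of 11 listed, 2 at an unadjusted p under 0.05 and 0 by DESeq2, with a median log2 fold change of -0.17. The smallest p-values belonged to Bmp1, a procollagen C-proteinase (-0.56, SE 0.21, adjusted p = 0.146), and Pcsk6, a proprotein convertase (-0.41, SE 0.159, adjusted p = 0.155). Among 6 tested of 13 relatives with a fibrinogen-like domain, the matrix glycoprotein Tnc fell from 480.7 ± 158.5 CPM (SD, n = 7) to 230.6 ± 35.1 CPM (n = 3), a log2 fold change of -1.0 (SE 0.249, adjusted p = 0.0361). It was the 1 member of that list called by edgeR, while DESeq2 called 4 of the 6 and 5 had an unadjusted p under 0.05. The median of the 6 was -0.91. Its call was kept in 4 of 10 fits with a library left out. The adjusted p was 0.074 and 0.0841 without libraries 1 and 2 of Mkx-CreER/+, 0.12 and 0.0988 without libraries 1 and 4 of Mkx-CreER/flox, 0.0653 and 0.0627 without libraries 1 and 3 of Mkx-flox/+, and 0.0619 with the muscle covariate.

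The host genes of the nested members were compared as well. A single host gene per locus cannot show whether a whole locus moved, and that was not tested. Mtor had 104.9 ± 22.4 CPM (SD, n = 3) in Mkx-CreER/flox and 120.7 ± 18.4 (n = 7) in the controls, a log2 fold change of -0.17 (SE 0.164, 95% interval -0.52 to 0.18, adjusted p = 0.607). The count ratio of Angptl7 to Mtor was 58.2 to 95.9 in Mkx-CreER/flox, 99.7 to 164.9 in Mkx-CreER/+ and 91.9 to 154.0 in Mkx-flox/+, so it overlapped with Mkx-flox/+. Ralgps1, the host of Angptl2, gave -0.31 (SE 0.214, adjusted p = 0.452) and Ralgps2, the host of Angptl1, gave 0.09 (SE 0.237, adjusted p = 0.873). Dock6, which holds Angptl8, gave 0.08 (SE 0.24, adjusted p = 0.89). Of these 4 hosts 0 were called by edgeR or DESeq2, and 0 had an unadjusted p under 0.05.

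Angptl4 is a textbook target of the fatty acid sensing PPAR receptors, of hypoxia and of glucocorticoids. Of the 6 regulator genes, Ppara rose from 3.85 ± 1.62 CPM (SD, n = 7) to 9.28 ± 3.98 CPM (n = 3), a log2 fold change of 1.28 (SE 0.314, adjusted p = 0.035), while Angptl4 fell. The groups overlapped, and the list's median was 0.32, with 1 of 6 called by DESeq2 as well and 3 at an unadjusted p under 0.05. Its call was kept in 4 of 10 fits with a library left out. Its adjusted p was 0.0893 and 0.0815 without libraries 1 and 2 of Mkx-CreER/+, 0.146 and 0.141 without libraries 1 and 4 of Mkx-CreER/flox, 0.0618 and 0.0602 without libraries 1 and 3 of Mkx-flox/+ and 0.161 with the muscle covariate.

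Among 12 other PPAR targets 2 rose and 0 fell, with a median of 0.62. They were Pdk4, a kinase that restrains glucose oxidation (1.07, SE 0.282, adjusted p = 0.0466), and Fabp3, a fatty acid binding protein abundant in muscle (1.61, SE 0.38, adjusted p = 0.0384). DESeq2 called 5 of the 12, and 6 had an unadjusted p under 0.05. Against Mkx-flox/+ alone 4 rose by edgeR and DESeq2 called 6. Beside these stand the shares of counts in skeletal muscle markers, 7.80 to 12.2% in Mkx-CreER/flox and 1.75 to 8.56% over the controls. The Pdk4 call was kept in 2 of 10 fits with a library left out, with an adjusted p of 0.112, 0.0695 and 0.0729 without libraries 1, 2 and 4 of Mkx-CreER/+, 0.249 and 0.168 without libraries 1 and 4 of Mkx-CreER/flox, 0.053, 0.0637 and 0.0762 without libraries 1, 2 and 3 of Mkx-flox/+. It also ended with upper-quartile scaling (0.0558), with no filter (0.081), with the muscle covariate (0.224) and without mitochondrial, muscle and erythroid genes (0.0504). The Fabp3 call was kept in 3 of 10, with an adjusted p of 0.0871 and 0.0938 without libraries 1 and 2 of Mkx-CreER/+, 0.208, 0.129 and 0.0614 without libraries 1, 4 and 5 of Mkx-CreER/flox, 0.0724 and 0.0617 without libraries 1 and 2 of Mkx-flox/+, and ended with no filter (0.12) and with the muscle covariate (0.141).

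Of 12 hypoxia targets 1 fell, P4ha1, a collagen prolyl hydroxylase subunit (-1.07, SE 0.259, adjusted p = 0.0334), and the median was -0.01. DESeq2 called 2 of the 12, and 3 had an unadjusted p under 0.05. The P4ha1 call was kept in 4 of 10, with an adjusted p of 0.0768 and 0.075 without libraries 1 and 2 of Mkx-CreER/+, 0.076, 0.116 and 0.0589 without libraries 1, 4 and 5 of Mkx-CreER/flox, 0.0573 without library 1 of Mkx-flox/+, with 0.107 under the muscle covariate. Of 10 glucocorticoid targets 1 fell, Fkbp5, a co-chaperone of the glucocorticoid receptor (-1.07, SE 0.248, adjusted p = 0.0307), and all 10 had negative values, with a median of -0.50. DESeq2 called 2 of the 10, and 2 had an unadjusted p under 0.05. The Fkbp5 call was kept in 3 of 10, with an adjusted p of 0.0656 and 0.0743 without libraries 1 and 2 of Mkx-CreER/+, 0.104 and 0.0704 without libraries 1 and 4 of Mkx-CreER/flox, 0.0512, 0.051 and 0.0533 without libraries 1, 2 and 3 of Mkx-flox/+, with 0.118 under the muscle covariate.

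The genes whose level followed Angptl7 most closely over the 10 libraries were ranked by the root mean square difference between log2 CPM profiles centred on each gene's mean, among 12194 genes. This describes these libraries, which share genotype, depth and tissue make-up, and carries no test. The 10 closest were Vit (0.150), Otulinl (0.157), Tlr2 (0.160), Cd37 (0.164), Pik3cg (0.168), Cables1 (0.184), Bloc1s3 (0.186), Pold4 (0.188), Arhgap30 (0.188) and Elmo1 (0.191), against a median of 0.571 over all genes. Vit, which encodes the matrix protein vitrin, had 95.3 to 138.0 CPM in Mkx-CreER/flox and 148.1 to 231.6 CPM in the controls. Tlr2 is an innate immune receptor, and Cd37 and Pik3cg encode a tetraspanin and a kinase subunit of leukocytes. Within the family, Angptl2 (0.361, place 896) and Angptl4 (0.364, place 933) were closer to Angptl7 than Angptl1 was (0.503, place 4106), and Mkx stood at 0.634.

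**Figure D5:**
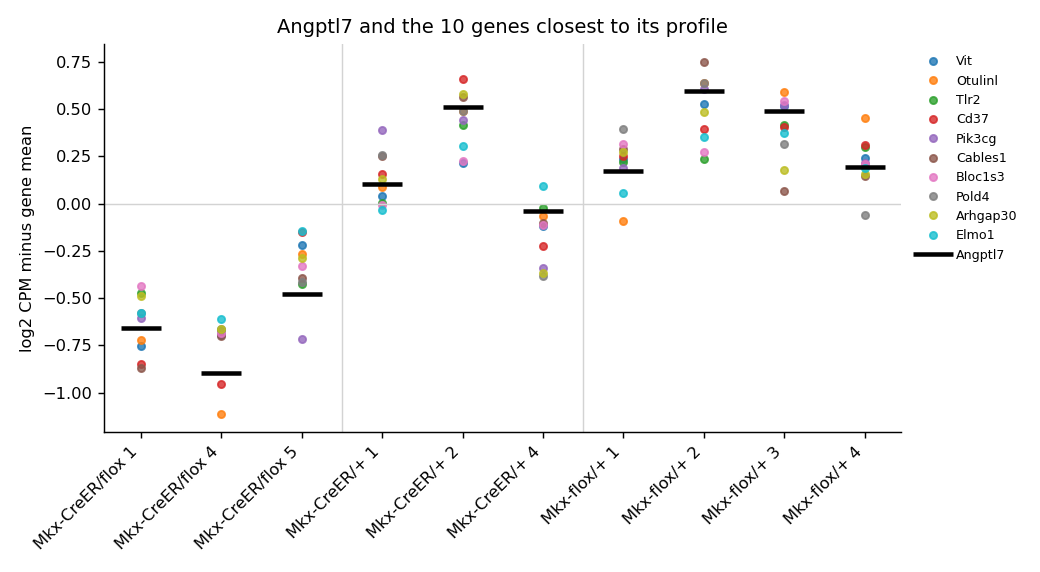
Centred log2 CPM of Angptl7 (black bars) and of the 10 genes with the most similar profile (points) in each of the 10 libraries, grouped by genotype. The root mean square difference from Angptl7 is 0.150 for Vit and 0.191 for Elmo1, and most points lie close to the bars in all 3 genotypes.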

How the data were processed

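RNA from Achilles tendon was sequenced by RamDA-seq, a total RNA method, in 10 libraries of 3 Mkx genotypes. Per the file headers and values, the authors deposited raw counts per Ensembl gene for 32285 genes. Reads were trimmed with fastp and aligned with STAR to mm10, per the submitters' processing notes, with no versions, counter, annotation, strand setting or handling of multiply matching reads given in the sources used here. The header names tied the Mkx-flox/+ columns to single samples. For Mkx-CreER/+ (columns 1, 2 and 4) and Mkx-CreER/flox (columns 1, 4 and 5) they gave the genotype alone, and 0 value columns were left unmatched. Symbols and positions came from GENCODE vM21 for 32158 identifiers, with 127 unmatched. Ero1a was found under its older symbol.

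The fit used edgeR 4.0.16 in R 4.3.3 (filterByExpr by genotype, TMM, 1 robust quasi-likelihood model of all 10 libraries with a term per genotype). Both controls had equal weight, and p-values were adjusted by Benjamini-Hochberg over 16017 genes and called under 0.05. CPM is TMM-normalized, and TPM uses the union of annotated exons. Squared differences between replicate pairs were 21.7 to 108 times those of counting error alone (chi-square per degree of freedom). The fit was tested on counts simulated gene by gene from edgeR's own estimates of spread. These counts hold no shift in tissue make-up between genotypes. Alternatives were DESeq2 1.42.0, RLE and upper-quartile scaling, 2 other filters, the compared groups alone, a muscle covariate, a fit without mitochondrial, muscle and erythroid genes, each library left out and, chosen after the data were seen, no scaling factor.

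The members and lists were chosen with earlier results of these data known. Named were the 5 members and Mkx, the other ligands and host genes analysed here (some items of these lists are not reported here), from each other gene list up to 3 called members of smallest p (or the 2 of smallest p), and the 10 genes closest to Angptl7 in profile. Ratios between members, Tek, Gm17473, Gm37802 and A230050P20Rik were added after values were seen. Gene lists were ligands, receptors, lipases and proteases, fibrinogen-like relatives, PPAR, hypoxia and glucocorticoid targets, hosts and regulators. Marker lists were tendon, paratenon, adipocyte, muscle, macrophage, endothelial, mural, Schwann cell, chondrocyte, epidermis and erythroid. RefSeq promoter windows (GRCm38.p6) matched 4 of the 5 members, and Angptl4 had none in the table used.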

Additional observations from a re-analysis of the deposited data

How the results depend on the processing

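Against both controls, 3 Angptl genes and 744 genes in all were called. The count of Angptl genes was 0 with the muscle covariate and ranged from 0 to 3 with a library left out. The count of all genes was 1459 with DESeq2, 64 with the muscle covariate and 64 to 1114 with a library left out (76 and 67 without libraries 1 and 2 of Mkx-CreER/+, 213 and 64 without libraries 1 and 4 of Mkx-CreER/flox, 246, 352 and 379 without libraries 1, 2 and 3 of Mkx-flox/+). Against Mkx-CreER/+, DESeq2 called 1 Angptl gene and 126 genes, no filter gave 9 genes, the compared groups alone gave 0, and left-out libraries gave 0 to 117 genes (0 and 6 without libraries 4 and 1 of Mkx-CreER/flox, 2 and 117 without libraries 2 and 4 of Mkx-CreER/+). Against Mkx-flox/+, where 3 Angptl genes and 1165 genes were called, the muscle covariate gave 1 and 126, DESeq2 gave 1866 genes, and left-out libraries gave 2 to 3 Angptl genes and 455 to 1585 genes (632 and 518 without libraries 1 and 4 of Mkx-CreER/flox, 455, 640 and 546 without libraries 1, 2 and 3 of Mkx-flox/+). Between the controls DESeq2 called 37 genes. With a library left out the uncalled difference of Angptl1 ranged from -0.27 to 0.13 against both controls and from -0.14 to 0.25 against Mkx-flox/+. It changed sign to 0.13 against both controls without library 4 of Mkx-CreER/flox and to -0.14 against Mkx-flox/+ without library 1 of Mkx-CreER/flox. The cause of these changes was not tested. A left-out library lowers the number of samples, but not every such fit called fewer genes. Against both controls 1114 genes were called without library 4 of Mkx-CreER/+ and 1054 without library 5 of Mkx-CreER/flox, beside 744 with all libraries. RLE, upper-quartile and unscaled library totals changed no call or direction of a member. The Mkx call against Mkx-CreER/+ ended without library 4 of Mkx-CreER/flox (adjusted p = 0.0549) and with the compared groups alone (0.0575). No paired analysis was possible because the column numbers of Mkx-CreER/+ and Mkx-CreER/flox are not the replicate numbers of the labels, and no source used here says that equal column numbers mark a pair. Depth limits Angptl6, which had at most 14 counts.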
